A study of Mus musculus with 27 samples.

Results

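The 9 genes described here, Gdnf, Gfra1, Ret, Spry1, Spry2, Spry4, Robo2, Slit2 and Gdf11, were chosen by name from the 24953 genes of an RNA-seq table of mK4 cells, an immortalized mouse cell line of kidney metanephric mesenchyme. The control cells were the parental mK4 line, labelled WT. Runx1KO cells were sub-lines of it in which CRISPR/Cas9 had removed the third exon of Runx1, and ZebDKO cells were sub-lines in which the start-codon exons of Zeb1 and Zeb2 had been targeted. All cells were grown in serum to confluency, and each of the 3 groups had 3 polyA RNA-seq libraries. Both knockouts were grown from picked clones. The number of clones behind the libraries is not given in the sources used here, so clone and genotype cannot be told apart. Chromatin data, from control and Runx1KO cells, were peak lists of ATAC-seq, which maps open chromatin, and of ChIP-seq, with Runx1 mapped in control cells and its paralog Runx2 in both. Runx1 ChIP-seq of Runx1KO cells served the authors as background.

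In the developing kidney the metanephric mesenchyme secretes GDNF, which binds the co-receptor GFRα1 and so activates the receptor tyrosine kinase RET on the neighbouring ureteric bud, and the bud grows out and branches. Sprouty proteins dampen the Ras and ERK signal downstream of RET and other receptor tyrosine kinases. SLIT2 acting through ROBO2 limits where Gdnf is expressed and how many buds form, and GDF11, a ligand of the TGF-β family, is required for normal Gdnf expression.

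The ligand Gdnf fell to almost nothing in Runx1KO cells and rose in ZebDKO cells. Its neighbours in the pathway moved in several ways. Slit2 fell to almost nothing in Runx1KO cells and to a lesser extent in ZebDKO cells, and Gdf11 fell in both. Spry1 rose in Runx1KO and fell in ZebDKO cells, Spry2 rose in both, and Spry4 rose strongly in ZebDKO cells. The receptors Ret, Gfra1 and Robo2 were at or near 0 in all 9 libraries. Levels are in TPM, a transcript abundance scaled for gene length and library total. Fold changes are on the log2(TPM + 1) scale, which understates the change of low genes, and were tested with limma over all genes that reached 1 TPM in 3 or more of the 6 libraries of a comparison. A gene is said to have risen or fallen where its adjusted p was under 0.05, and called where it also changed over 2-fold. In all, 6 of the 9 genes passed the filter in each comparison.

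Gdnf was measured at 13.1, 11.4 and 13.6 TPM in the control libraries, at 0.1 TPM in each of the 3 Runx1KO libraries, and at 38.6, 41.4 and 39.4 TPM in the ZebDKO libraries. The 3 groups did not overlap, with ZebDKO cells highest and Runx1KO cells lowest. In RNA of whole cultures, fewer expressing cells and less RNA per cell cannot be told apart. The Runx1KO difference from control was −3.64 on the log2 scale (SE 0.0814, limma adjusted p = 5.95e-08). Since this table holds 1 decimal, a second deposited table of the same control and Runx1KO libraries with 2 decimals was read for its low values. There Gdnf was at 25.55, 22.04 and 26.54 TPM in control and at 0.21, 0.33 and 0.13 TPM in Runx1KO libraries, a 111-fold difference of the means. The ZebDKO mean of 39.8 ± 1.44 TPM (SD, n = 3) was 3.13 times the control mean of 12.7 ± 1.15 TPM (SD, n = 3), a log2 difference of 1.58 (SE 0.0684, limma adjusted p = 1.03e-06). Directly compared, Runx1KO cells lay 5.21 log2 units below ZebDKO cells (SE 0.0549, limma adjusted p = 7.91e-09).

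Of the receptors, the co-receptor Gfra1 was listed at 0.1 TPM in every control library and at 0 in every knockout library of both kinds. Ret was listed at 0 in all 9 libraries, and so was Robo2, the receptor of SLIT2. In the table with 2 decimals Robo2 was at 0.16, 0.11 and 0.18 TPM in control and listed at 0 in Runx1KO libraries, and Gfra1 was at 0.13, 0.12 and 0.10 TPM against 0. None of the 3 receptors reached the filter, so none was tested. Ret was listed at 0 in all 6 libraries of the second table too. A listed 0 does not exclude expression. Of 5102 genes at 0 throughout the first table and present in both, 42 had a mean of at least 1 TPM in the second.

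Slit2 was at 6.4, 5.7 and 6.5 TPM in control, at 0.1 TPM in each Runx1KO library, and at 3.0, 3.2 and 2.8 TPM in ZebDKO libraries. The groups did not overlap, and the ZebDKO libraries lay between the others. The Runx1KO difference from control was −2.71 on the log2 scale (SE 0.0788, limma adjusted p = 2.04e-07). In the table with 2 decimals the control mean of Slit2 was 72.7 times the Runx1KO mean. The ZebDKO difference was −0.85 (SE 0.0760, limma adjusted p = 3.33e-05), short of 2-fold, although with a pseudocount of 0.1 TPM it was −1.02 and past it.

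Gdf11 was at 14.5, 12.7 and 12.6 TPM in control, at 8.1, 8.9 and 8.8 TPM in Runx1KO and at 7.3, 7.5 and 7.6 TPM in ZebDKO libraries. Both knockouts lay below control without overlap and short of 2-fold. The difference was −0.57 in Runx1KO (SE 0.0682, limma adjusted p = 2.48e-04) and −0.75 in ZebDKO cells (SE 0.0655, limma adjusted p = 2.88e-05). The 2 knockouts differed by 0.18 (SE 0.0548, limma adjusted p = 0.0175), a difference that did not hold: with quantile normalization it was −0.09 (limma adjusted p = 0.208). Leaving out Runx1KO replicate 2, Runx1KO replicate 3 or ZebDKO replicate 1 gave limma adjusted p-values of 0.0599, 0.0567 and 0.0538.

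**Figure D1:**
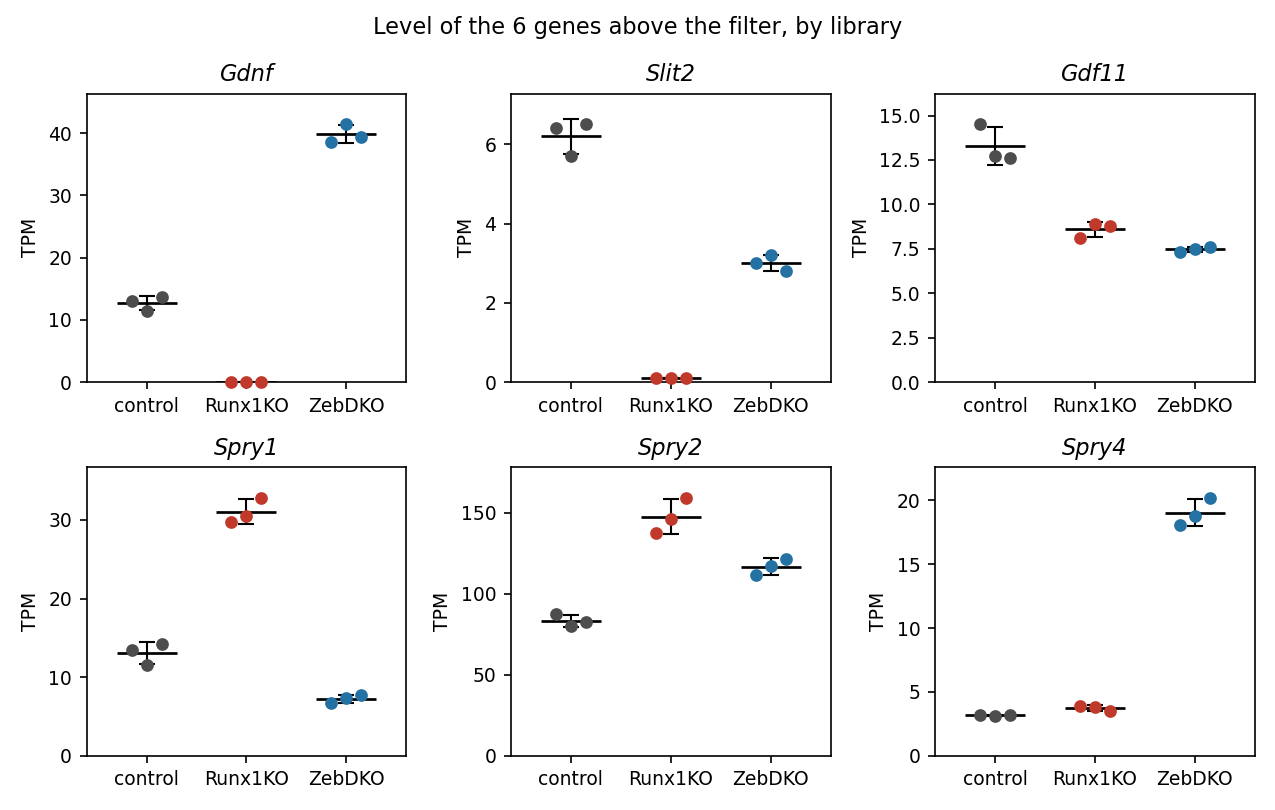
TPM of Gdnf, Slit2, Gdf11, Spry1, Spry2 and Spry4 in each library (points) of control, Runx1KO and ZebDKO cells, with the mean (wide line) and SD (bar) of 3 libraries. Each vertical axis is linear and starts at 0. Gdnf and Slit2 sit at 0.1 TPM in all Runx1KO libraries, while Gdnf and Spry4 are highest in the ZebDKO libraries.

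Among the Sprouty inhibitors, Spry1 was at 13.5, 11.5 and 14.2 TPM in control, at 29.8, 30.5 and 32.8 TPM in Runx1KO and at 6.7, 7.4 and 7.7 TPM in ZebDKO libraries. The Runx1KO libraries were all above, and the ZebDKO libraries all below, the control libraries. The difference from control was 1.19 in Runx1KO cells (SE 0.0792, limma adjusted p = 1.22e-05) and −0.76 in ZebDKO cells (SE 0.0875, limma adjusted p = 1.21e-04), the latter short of 2-fold. Between the knockouts Spry1 differed by 1.95 (SE 0.0621, limma adjusted p = 2.39e-07), higher in Runx1KO cells.

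Spry2 was the most abundant of the 9 genes in every library. It was at 87.1, 79.9 and 82.3 TPM in control, at 137.4, 146.1 and 159.0 TPM in Runx1KO and at 111.6, 116.8 and 121.6 TPM in ZebDKO libraries. The order was control, ZebDKO, Runx1KO, with no overlap between neighbours. The difference from control was 0.82 in Runx1KO (SE 0.0584, limma adjusted p = 1.75e-05) and 0.48 in ZebDKO cells (SE 0.0464, limma adjusted p = 4.59e-05), and that between the knockouts was 0.33 (SE 0.0576, limma adjusted p = 0.00111). All 3 were short of 2-fold.

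Spry4 was at 3.2, 3.1 and 3.2 TPM in control, at 3.9, 3.8 and 3.5 TPM in Runx1KO and at 18.1, 18.8 and 20.2 TPM in ZebDKO libraries. The ZebDKO libraries stood far above both other groups, by 2.26 against control (SE 0.0591, limma adjusted p = 9.71e-08). The difference of Runx1KO from ZebDKO cells was −2.08 (SE 0.0617, limma adjusted p = 1.78e-07). The Runx1KO difference of 0.18 from control (SE 0.0644, limma adjusted p = 0.0374) was lost when any single library other than Runx1KO replicate 3 was left out. The limma adjusted p was then 0.0670, 0.0772 and 0.0674 without control replicate 1, 2 and 3, and 0.103 and 0.0911 without Runx1KO replicate 1 and 2.

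Counted together, 1 of the 9 genes was called higher (Spry1) and 2 lower (Gdnf, Slit2) in Runx1KO against control cells, where 7.91% of the 13067 genes tested were called higher and 5.10% lower. In ZebDKO cells 2 were called higher (Gdnf, Spry4), against 7.50% of 12974 genes, and 0 lower, against 7.28%. At the limma adjusted p alone 3 of the 6 tested genes were lower in ZebDKO cells, and 3 were lower at an unadjusted p under 0.05. In Runx1KO against ZebDKO cells 1 was called higher (Spry1) and 3 lower (Gdnf, Spry4, Slit2), against 9.20% and 6.59% of 13071 genes. At the adjusted p alone all 6 passed in every comparison, 3 higher and 3 lower, where 70.5%, 79.4% and 80.0% of all genes did. Of all genes, 30.4% were higher and 40.1% lower in Runx1KO against control cells at the adjusted p alone, 26.9% and 52.5% in ZebDKO against control cells, and 50.2% and 29.8% in Runx1KO against ZebDKO cells. The groups did not overlap for any of the 6, where the same held for 73.7%, 81.0% and 81.7% of all genes. Both knockouts were compared with the same control libraries. Whether the ZebDKO libraries were made and sequenced together with the others is not given in the sources used here. Run and genotype therefore cannot be told apart in their comparisons. Genes above 0 TPM numbered 16209 to 16685 in ZebDKO libraries and 15601 to 15717 in the other libraries.

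**Figure D2:**
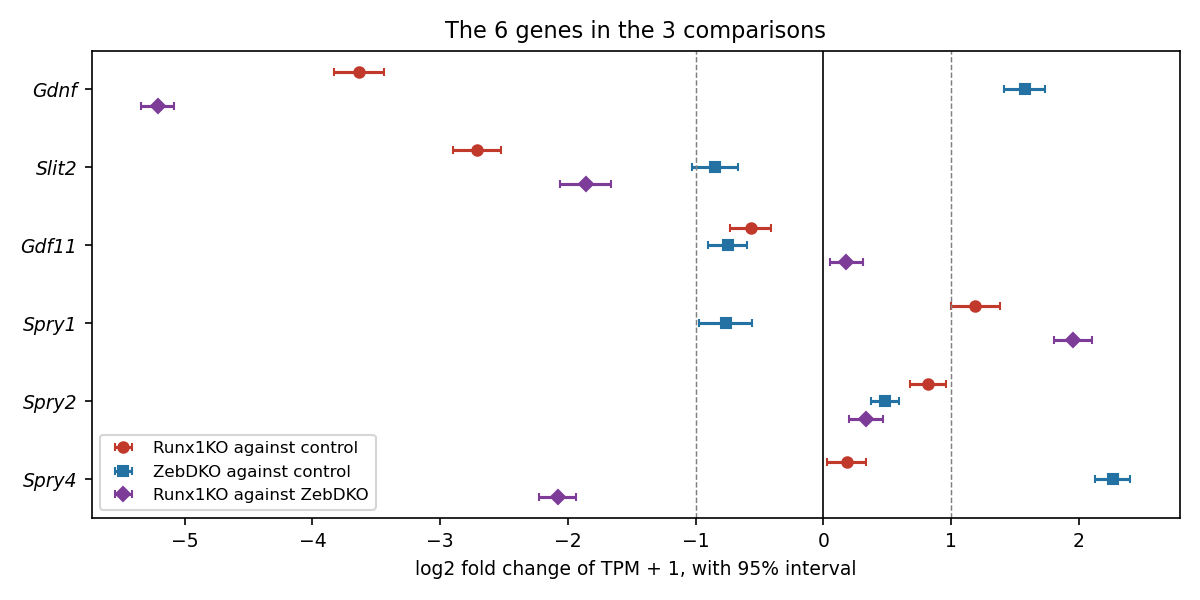
Log2 fold change of TPM + 1 (horizontal axis) of the 6 tested genes in the 3 comparisons, with 95% intervals from limma. Dashed lines mark a 2-fold change. Gdnf lies at −3.64 in Runx1KO and 1.58 in ZebDKO cells, and Spry1 at 1.19 and −0.76.

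Relative levels of different genes depended on the table. In control cells the first table had Gdf11, Spry1 and Gdnf close together at means of 13.3, 13.1 and 12.7 TPM, while the second had 8.97, 23.1 and 24.7 TPM. The gene lengths behind either table are not given in the sources used here. The median of all tested genes lay at −0.06, −0.18 and 0.15 on the log2 scale in the 3 comparisons in turn. With median-ratio scaling, which takes that shift out, the ZebDKO difference from control was 1.77 for Gdnf, 2.44 for Spry4, 0.68 for Spry2, −0.58 for Spry1, −0.68 for Slit2 and −0.57 for Gdf11, each with the direction it had before.

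The libraries of a group correlated at 0.994 to 0.996 and those of different groups at 0.912 to 0.927 (Pearson r of log2 values across genes), and 12541 to 12697 genes reached 1 TPM in a library. The targeted genes gave only a partial check of the labels, since TPM sums over a gene and a lost exon need not show. Runx1 was at 18.7, 15.6 and 17.9 TPM in control and at 30.3, 30.1 and 28.5 TPM in Runx1KO libraries. Zeb1 was at 15.1, 14.2 and 15.6 TPM in control, 16.8, 16.6 and 14.8 TPM in ZebDKO and 0.1, 0.2 and 0.2 TPM in Runx1KO libraries. Zeb2 was at 5.5, 4.9 and 5.2 TPM in control, 1.7, 1.8 and 1.6 TPM in ZebDKO and 0.2 TPM in each Runx1KO library. Of the targeted genes in their own knockouts only Zeb2 fell, with a log2 difference from control of −1.20 (SE 0.0741, limma adjusted p = 5.20e-06).

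Markers of metanephric mesenchyme were present in part. Of 11, 5 reached 1 TPM in all control libraries (Eya1, Pax2, Osr1, Sall1 and Hoxa11), while Six2 and Hoxd11 were listed at 0 there. Their summed level was 658.3 to 670.0 TPM in control, 716.7 to 784.7 TPM in Runx1KO and 574.1 to 606.3 TPM in ZebDKO libraries, most of it Pax2 and Hoxa11. Of the 5 tested, 0 were called higher and 2 lower in Runx1KO cells, Osr1 (66.4 to 0.4 TPM) and Eya1 (16.2 to 5.87 TPM), with 2 higher and 2 lower at an unadjusted limma p under 0.05, and in ZebDKO cells 1 was called lower. The 5 epithelial markers summed to 2.1 to 4.1 TPM in control, 2567.5 to 2648.9 TPM in Runx1KO and 1144.3 to 1203.2 TPM in ZebDKO libraries, nearly all of it the keratin Krt8. Epcam was listed at 0 in control and Runx1KO libraries. Cdh1 stayed under the filter, at means of 0.1, 0.2 and 0.5 TPM in control, Runx1KO and ZebDKO cells. The epithelial markers that were tested all rose, 3 of 3 in Runx1KO and 4 of 4 in ZebDKO cells. That outcome was largely set by the filter. Krt18, Cldn4 and Epcam were under 1 TPM in every control library, so they could be tested only where a knockout was higher. Krt8 alone reached 1 TPM in all control libraries. Gdnf and Spry1 moved in opposite directions in the 2 knockouts, while Krt8 rose in both. The part of the markers in the changes of the 9 genes was not tested. The 10 ureteric bud markers summed to 87.4 to 96.2, 72.6 to 75.0 and 87.6 to 97.2 TPM in the 3 groups, the 6 stromal markers to 93.2 to 100.8, 61.3 to 67.8 and 60.2 to 62.8 TPM, and the 5 endothelial and blood markers to at most 5.8 TPM in any library. The defining bud markers Ret and Wnt9b were listed at 0 throughout.

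The wider pathway was read from 7 lists of genes. Counts of called genes in them stand beside the shares of all tested genes called, 7.91% higher and 5.10% lower in Runx1KO and 7.50% and 7.28% in ZebDKO cells. Of 13 GDNF family ligands and receptors, 6 were tested, and in Runx1KO cells 1 was called higher and 3 lower. Beside Gdnf, the syndecan Sdc3 fell from 7.60 ± 0.265 to 0.967 ± 0.0577 TPM (SD, n = 3) and the adhesion molecule Ncam1 from 16.5 ± 1.26 to 3.57 ± 0.231 TPM (SD, n = 3), both of which can bind GDNF. The stress-responsive ligand Gdf15 rose from 16.4 ± 1.97 to 103 ± 7.50 TPM (SD, n = 3). In ZebDKO cells 2 of the 6 were called higher, Gdnf and Sdc3, the latter at 16.3 ± 0.586 TPM (SD, n = 3), and 0 lower, with 1 lower at an unadjusted limma p under 0.05. Sdc3 lay at the 2-fold limit there, with a log2 change of 1.01, and the count fell to 1 without control replicate 1 or ZebDKO replicate 2. Without Runx1KO replicate 1 or 2 the count higher in Runx1KO cells was 2. The median of the list was −1.33 in Runx1KO and 0.22 in ZebDKO cells, beside −0.06 and −0.18 over all genes.

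Among 19 genes known to act on Gdnf expression in the mesenchyme, 11 were tested, and 1 was called higher and 4 lower in each knockout, beside 7.91% and 5.10% of all genes in Runx1KO and 7.50% and 7.28% in ZebDKO cells. The transcription factor Osr1 fell from 66.4 ± 3.87 to 0.4 ± 0.1 TPM in Runx1KO and 18.2 ± 0.987 TPM in ZebDKO cells (SD, n = 3). The kinesin Kif26b fell from 18.4 ± 2.25 to 0.1 and 5.60 ± 0.458 TPM, the first the same in all 3 libraries. Nephronectin, Npnt, an integrin ligand, rose from 4.10 ± 0.265 to 23.9 ± 0.569 and 25.7 ± 0.346 TPM. In Runx1KO cells Fras1, a matrix protein, also fell, from 2.87 ± 0.416 to 0.367 ± 0.0577 TPM, and Eya1, a transcriptional co-activator chosen here after its values were seen as the remaining gene of the 4, fell from 16.2 ± 0.379 to 5.87 ± 0.404 TPM. In ZebDKO cells the forkhead factor Foxc1, chosen in the same way, fell from 79.3 ± 6.58 to 27.5 ± 0.252 TPM. Between the knockouts Osr1, Kif26b, Fras1 and Eya1 were called lower in Runx1KO than in ZebDKO cells, as Gdnf was, and 2 other genes of the list were called higher. With median-ratio scaling 2 were higher in ZebDKO cells instead of 1, and 1 higher between the knockouts. The list median was −0.44 in Runx1KO and −0.48 in ZebDKO cells.

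Of 15 genes induced by Ret or by ERK, 12 were tested in Runx1KO cells, and 4 were called higher and 1 lower. The ERK phosphatases Dusp5 and Dusp6 rose from 156 ± 8.96 to 466 ± 29.7 TPM and from 133 ± 7.63 to 373 ± 4.07 TPM (SD, n = 3). The ligand Wnt11 rose from 0.0667 ± 0.0577 to 1.27 ± 0.115 TPM and the factor Myb from 0.200 to 1.47 ± 0.153 TPM. Wnt11 and Myb were under 1 TPM in every control library and passed the filter only through the Runx1KO libraries. They could be tested only where these were higher, so their part in the count of 4 was set by the filter. Spsb4 fell from 13.5 ± 0.964 to 6.23 ± 0.603 TPM. Spsb4, the remaining gene of the 5, was named after its values were seen, and its change lay at the 2-fold limit. The call was lost with median-ratio scaling, in the second table, and without control replicate 2 or Runx1KO replicate 2. The count higher was 2 with quantile normalization and in the second table, which listed Wnt11 at 0 in every Runx1KO library and at 0, 0 and 0.03 TPM in control, so that the rise of Wnt11 is not seen there. In ZebDKO cells 11 were tested, of which 2 were called higher and 2 lower. The transcription factor Sox8 rose from 1.23 ± 0.289 to 6.13 ± 0.702 TPM, while the ETS factor Etv1 fell from 3.93 ± 0.153 to 1.03 ± 0.0577 TPM and Spsb4 to 5.23 ± 0.737 TPM. Ret itself was listed at 0 in the same libraries. The list median was 0.42 in Runx1KO cells, with Wnt11 and Myb included, and −0.06 in ZebDKO cells.

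Of 26 adaptors of Ret and members of the Ras and ERK cascade, 24 were tested. The adaptor Grb7 rose from 0.800 to 258 ± 6.30 TPM in Runx1KO and 175 ± 6.60 TPM in ZebDKO cells (SD, n = 3), and the PI3-kinase subunit Pik3r1 fell from 21.4 ± 2.65 to 5.63 ± 0.379 and 6.43 ± 0.451 TPM. These were the 1 gene higher and the 1 lower in Runx1KO cells. Grb7 was under 1 TPM in every control library, so it passed the filter only through the knockout libraries. In ZebDKO cells 1 was higher and 3 were lower, the others being the docking proteins Gab2, from 17.0 ± 0.924 to 7.93 ± 0.231 TPM, and Frs2, from 45.4 ± 2.16 to 22.2 ± 1.78 TPM. Both lay at the 2-fold limit, and the count lower was 1 with median-ratio scaling, with quantile normalization and without control replicate 3. Between the knockouts 0 of 24 were called (1 higher without ZebDKO replicate 2), while 17 were higher and 4 lower at the limma adjusted p alone and as many at the unadjusted p, where 50.2% of all genes were higher and 29.8% lower and the median of all genes was 0.15.

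The remaining 3 lists held few calls beyond the 9 genes themselves. Of 7 Sprouty and Spred genes, 6 were tested, and the single call against control was Spry1 in Runx1KO and Spry4 in ZebDKO cells. At the limma adjusted p alone 3 were higher and 2 lower in Runx1KO cells, and 2 higher and 3 lower in ZebDKO cells. Of 10 Slit, Robo and srGAP genes 5 were tested, and Slit2 was the only call against control, in Runx1KO cells. At the limma adjusted p alone 3 were lower in Runx1KO cells, and 2 higher and 3 lower in ZebDKO cells, with as many in ZebDKO cells at the unadjusted p. Of 14 genes comprising Gdf11, its receptors, Smads and antagonists, 11 were tested in Runx1KO cells with 0 called, and 4 higher and 5 lower at the limma p, adjusted or not, where 30.4% and 40.1% of all genes were higher and lower at the adjusted p. In ZebDKO cells 10 were tested and the antagonist follistatin, Fst, was called lower, from 20.4 ± 1.31 to 6.70 ± 0.346 TPM (SD, n = 3). At the limma adjusted p alone 1 of the 10 was higher and 7 lower there, beside 26.9% and 52.5% of all genes.

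**Figure D3:**
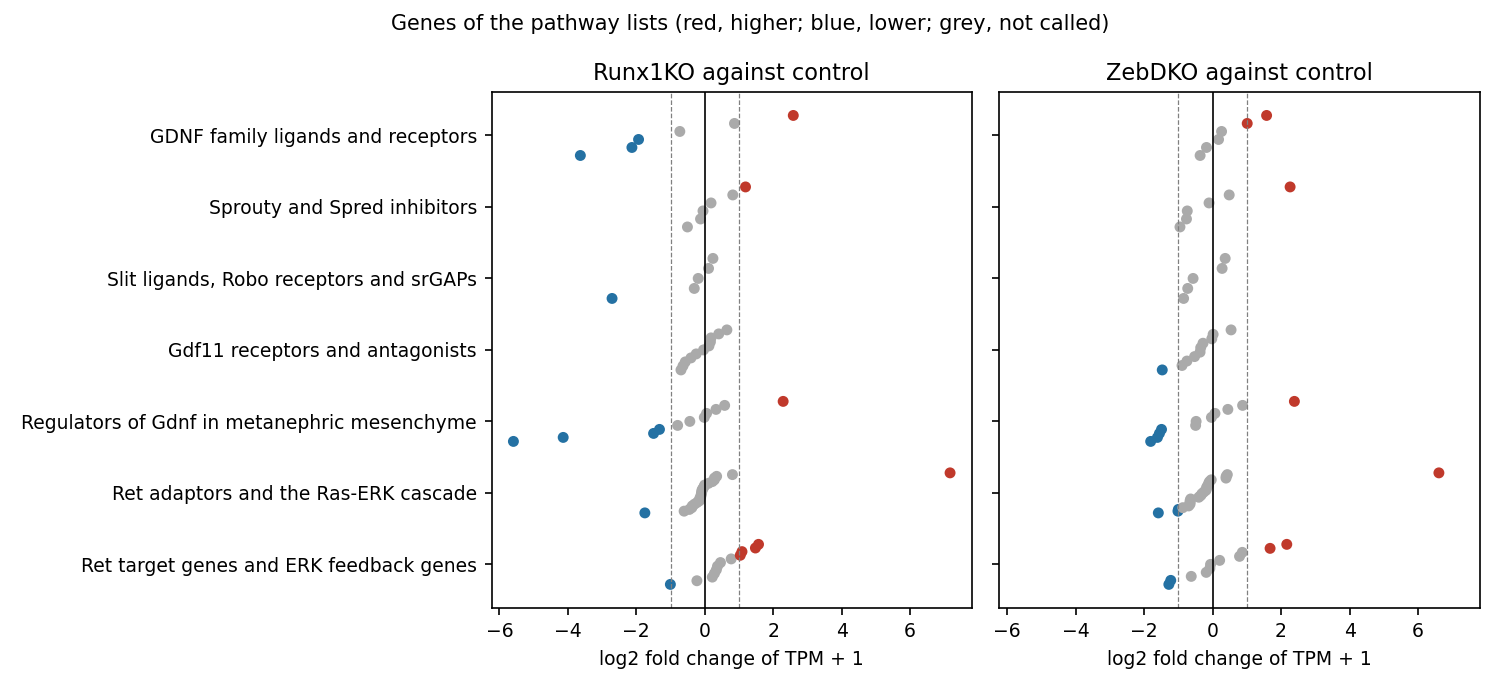
Log2 fold change of TPM + 1 (horizontal axis) of every tested gene of the 7 pathway lists, for Runx1KO against control (left) and ZebDKO against control (right). Red points were called higher, blue lower and grey not called, and dashed lines mark a 2-fold change. Grb7 stands farthest right in both, and Osr1 farthest left in Runx1KO cells, at −5.59.

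Chromatin around the 9 genes was described from the deposited peak lists, which hold no value per replicate, so that no difference was tested. ATAC-seq peaks came in 3 lists, here called closing (lower in Runx1KO than in control cells), opening (higher) and stable. Peaks were assigned when their middle lay within 100 kb of a gene's start in the GENCODE vM1 annotation of mm9, and distances run in the direction of the gene. Of the 9 genes, 5 had at least 1 closing peak (45.0% of 22225 coding genes did), 4 an opening peak (55.8%) and 8 a stable peak (84.1%). A Runx1 peak lay near 6 of the 9 (61.9% of coding genes), a Runx2 peak in control cells near 6 (76.6%) and a Runx2 peak in Runx1KO cells near 6 (72.7%). At 100 kb these counts lie near the background and are no result about the 9 genes. Within 20 kb, 4 of the 9 (Gdnf, Gfra1, Slit2 and Gdf11) had a closing peak, beside 13.6% of coding genes, a difference that was not tested. That of Gdf11, at −18.5 kb, lay in an exon of Cd63, whose start was the nearest coding start. The start of Gdf11 itself lay in a stable region. Robo2 had no peak of any list in its window.

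Around Gdnf (chr15:7761011-7787575, plus strand) 7 closing and 0 opening regions were listed. The start was covered by a region from 7759883 to 7761482, followed by 2 in the first part of the gene, from 7761300 to 7762438 and from 7761871 to 7763544, in an intron. Each of the 3 overlaps the next. Farther downstream, past the end of the gene, closing regions lay at 27.7, 48.0, 52.1 and 67.0 kb from the start, the last within an intron of the neighbour Wdr70. Of the 26 closing or opening regions near the 9 genes, 4 overlapped a Runx peak of any list, and 3 of these were at Gdnf. All 4 were among the 15 closing regions. Of these 15, 2 overlapped a Runx1 peak, beside 11.8% of closing regions over the genome. A Runx2 peak of control cells overlapped 3, beside 21.5%, and one of Runx1KO cells 4, beside 1748 of 8741. These counts lie near the background, were not tested and are no result about Gdnf. At 52.1 kb (chr15:7812626-7813614) the closing region held a Runx1 peak of 4.38-fold enrichment in control cells and Runx2 peaks of 8.52-fold in control and 8.02-fold in Runx1KO cells. At 27.7 kb (chr15:7788082-7789300) it held 2 Runx2 peaks in control cells, of 4.14-fold and 4.32-fold, and 1 in Runx1KO cells of 4.32-fold. At 1.7 kb it held a Runx2 peak of 3.76-fold that was listed in Runx1KO cells alone. A further site, at 75.8 kb in an intron of Wdr70, lay in a stable region and held a Runx1 peak of 4.09-fold and Runx2 peaks of 4.40-fold in control and 4.67-fold in Runx1KO cells.

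Since these sites carry the Runx peaks of the gene that fell most, 200 bases around the middle of 3 of the peaks are given from mm9, plus strand, with matches to the Runx consensus TGTGGT on either strand in capitals (ACCACA on the opposite strand).
Gdnf, Runx1 peak at 52.0 kb, chr15:7812939-7813138: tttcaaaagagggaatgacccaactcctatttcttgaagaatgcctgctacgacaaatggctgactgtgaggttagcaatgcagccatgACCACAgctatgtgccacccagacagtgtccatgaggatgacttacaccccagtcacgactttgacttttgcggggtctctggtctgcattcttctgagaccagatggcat
Gdnf, Runx2 peak in control cells at 27.3 kb, chr15:7788250-7788449: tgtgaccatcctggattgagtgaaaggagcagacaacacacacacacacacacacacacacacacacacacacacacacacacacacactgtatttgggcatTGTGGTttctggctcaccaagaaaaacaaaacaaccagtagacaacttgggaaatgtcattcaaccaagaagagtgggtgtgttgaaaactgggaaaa
Gdnf, Runx1 peak at 75.8 kb, chr15:7836713-7836912: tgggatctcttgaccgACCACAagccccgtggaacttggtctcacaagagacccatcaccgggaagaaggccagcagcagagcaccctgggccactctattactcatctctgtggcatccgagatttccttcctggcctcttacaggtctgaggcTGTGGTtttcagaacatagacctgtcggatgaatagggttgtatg
The window at 75.8 kb had 2 matches and the others shown 1 each. In the same closing region as the peak at 27.3 kb, the windows of the control Runx2 peak at 27.7 kb and of the Runx1KO Runx2 peak at 27.5 kb, both of 4.32-fold, had 0 matches. A match lay in 33.5% of all windows of the same length around Runx1 peaks, in 37.1% around Runx2 peaks of control cells, in 26.9% around closing, 14.4% around opening and 14.1% around stable ATAC-seq peaks. A match is a description of these letters and was not tested as a binding site.

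Slit2, the other gene at 0.1 TPM in Runx1KO cells, had a single closing region, over its start (chr5:48374054-48374974), and a Runx1 peak of 3.51-fold at −15.5 kb that overlapped no ATAC-seq region of any class. Gfra1 had closing regions at its start (chr19:58529333-58530609) and at 18.6 kb in an intron, neither with a Runx peak. The Runx peaks in the window of Ret, at 58.5 kb, lay at the start of the neighbour Csgalnact2. The window of Gdf11 held 10 other coding starts, with 3 closing and 15 stable regions, and which of these genes a region belongs to was not tested.

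The Sprouty genes showed another picture. Spry1 (chr3:37538869-37543520, plus strand) had 5 opening and 0 closing regions, at 9.6, 35.2, 65.3, 84.4 and 94.0 kb, all past its end. Those at 65.3, 84.4 and 94.0 kb lay nearer the start of Gm5148 than that of Spry1, the one at 84.4 kb on it. At the start of Spry1 a Runx2 peak of 7.36-fold in control and 5.53-fold in Runx1KO cells lay in a stable region. Spry2 (chr14:106291166-106296036, minus strand) had 2 opening regions, at 34.4 and 93.7 kb, and a Runx1 peak of 4.09-fold in an intron at 1.6 kb, in a stable region, with Runx2 peaks of 4.35-fold and 4.26-fold beside it in control and Runx1KO cells. Spry4 had 3 opening regions, at −3.4, −0.3 and 11.0 kb, and 2 closing regions, at 56.5 and 83.2 kb. The opening region at −0.3 kb covered its start and those of its neighbours Arhgap26 and 9630014M24Rik, and the one at −3.4 kb lay in an intron of both neighbours. The closing region at 83.2 kb was the remaining changing region with Runx peaks, of 7.11-fold for Runx1 and of 5.85-fold and 5.44-fold for Runx2 in control and Runx1KO cells. None of the 11 opening regions near the 9 genes overlapped a Runx peak. Over the whole genome 11.8% of closing, 1.25% of opening and 10.3% of stable regions overlapped a Runx1 peak, and 21.5%, 3.64% and 23.3% a Runx2 peak of control cells.

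For Spry1, which rose in Runx1KO and fell in ZebDKO cells, the middle 200 bases of its nearest opening regions are shown. Matches to the E-box CAGGTG, the hexamer that Zeb factors can bind, are in capitals on either strand (CACCTG on the opposite strand). The chromatin data held no ZebDKO cells, and a link of these matches to the level of Spry1 was not tested. The Runx1 window of Spry2 follows, with its Runx match in capitals. All are from mm9, plus strand.
Spry1, opening region at 9.6 kb, chr3:37548321-37548520: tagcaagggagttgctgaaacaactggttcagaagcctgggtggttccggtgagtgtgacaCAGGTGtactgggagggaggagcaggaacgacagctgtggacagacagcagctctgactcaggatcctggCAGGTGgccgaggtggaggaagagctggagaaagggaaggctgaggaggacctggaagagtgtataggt
Spry1, opening region at 35.2 kb, chr3:37573987-37574186: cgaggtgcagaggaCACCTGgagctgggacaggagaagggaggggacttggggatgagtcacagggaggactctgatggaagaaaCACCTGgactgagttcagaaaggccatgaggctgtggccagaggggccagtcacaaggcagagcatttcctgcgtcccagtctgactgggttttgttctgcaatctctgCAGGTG
Spry2, Runx1 peak at 1.6 kb, chr14:106294313-106294512: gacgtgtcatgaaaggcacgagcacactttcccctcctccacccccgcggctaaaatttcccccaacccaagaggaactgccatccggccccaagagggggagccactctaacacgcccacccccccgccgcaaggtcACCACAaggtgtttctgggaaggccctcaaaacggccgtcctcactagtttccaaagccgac
The windows at 9.6 and 35.2 kb held 2 and 3 matches to CAGGTG, and those of the other Spry1 opening regions, at 65.3, 84.4 and 94.0 kb, held 0, 1 and 0. Such a match lay in 38.3% of windows around all opening regions, 9.05% around closing and 17.1% around stable regions.

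**Figure D4:**
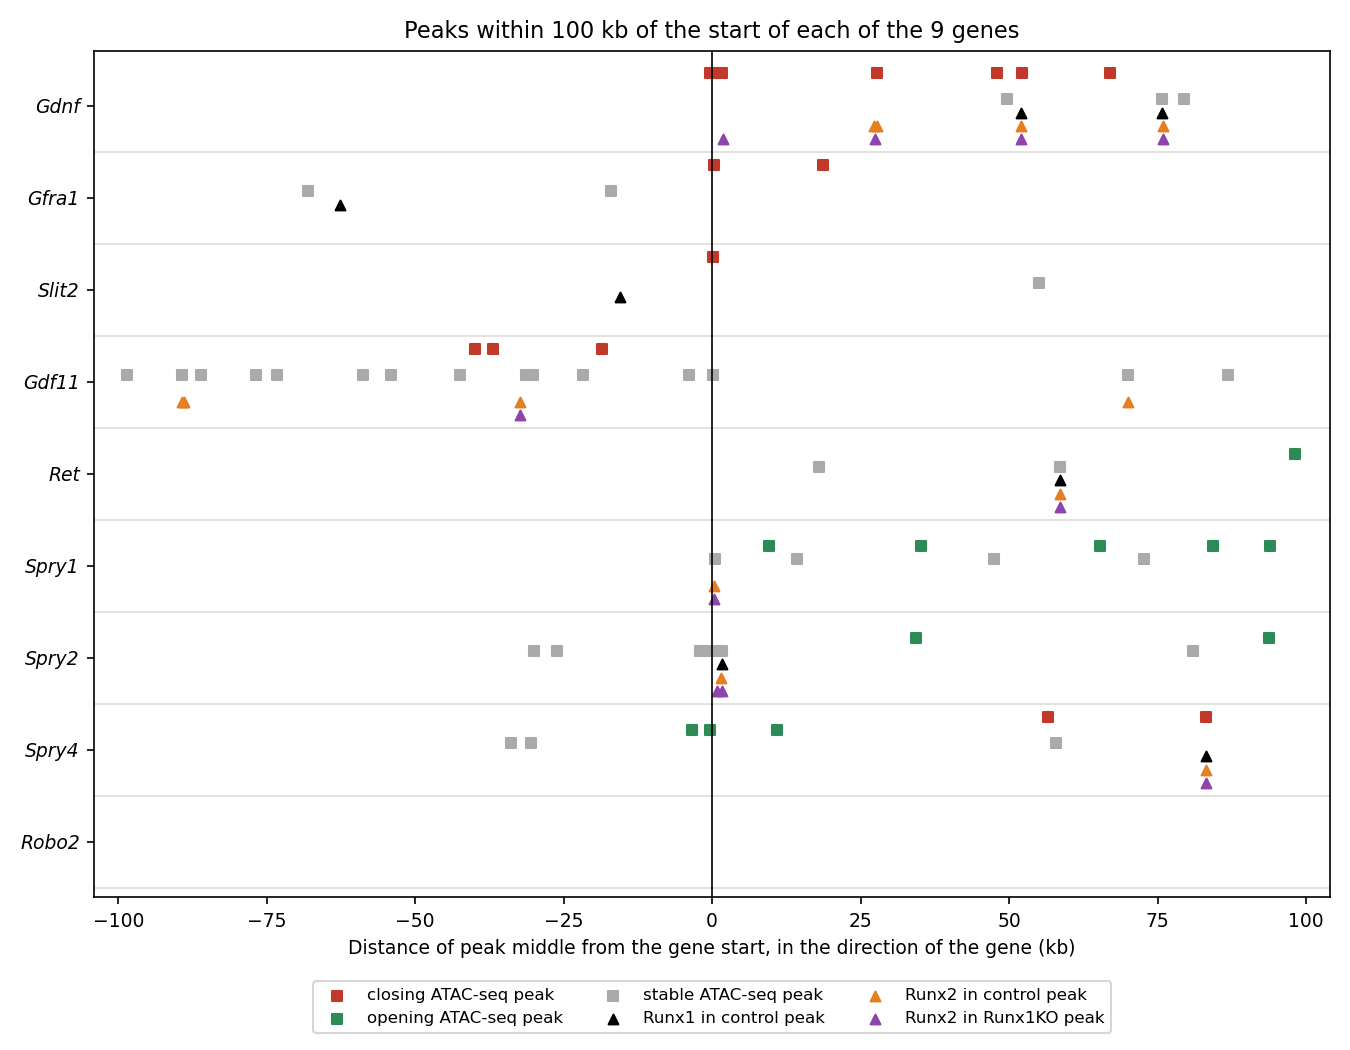
Distance of peak middles from the start of each gene, in kb in the direction of the gene (horizontal axis), for ATAC-seq (squares) and ChIP-seq (triangles) peaks of the 6 lists. Gdnf has 7 closing and 0 opening regions and Spry1 5 opening and 0 closing, and Robo2 has no peak. The Spry1 opening regions at 65.3, 84.4 and 94.0 kb lie nearer the start of Gm5148.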

How the data were processed

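The 9 genes and the lists were chosen with earlier results of these data known. RNA-seq was compared between 3 groups of 3 libraries. Per the methods, Trim Galore trimmed the reads, which were aligned to mm9 with STAR and counted on RefSeq genes with featureCounts, and the authors deposited TPM values in 2 tables, of 9 and of 6 libraries, both used here. TPM keeps no read number, so the depth per library is unknown and no counting interval is given. Per the methods each line was cultured in triplicate and RNA was taken with the same kit, so p-values measure the spread between cultures. They cannot be read as a spread between clones, since the number of clones behind the libraries is not given.

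ChIP-seq peaks were called by the authors with MACS2 on pooled replicates, and the deposited fold (a ratio over local background) was copied here. Per the methods, peaks overlapping background peaks from Runx1 ChIP-seq of Runx1KO cells were taken out. Where no Runx peak is listed, a lack of signal and a peak taken out in that step cannot be told apart. The deposited −log10 q values were used for 1 alternative with q under 0.01. For ATAC-seq the authors kept peaks found in at least 2 of 3 replicates and deposited their coordinates, with log2 fold changes and −log10 values of their own comparison that were not used.

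Genes that reached 1 TPM in 3 or more of the 6 libraries compared were fitted on log2(TPM + 1) with limma 3.58.1 in R 4.3.3, with a trend in the prior variance, two-sided, and p-values were adjusted over all genes tested by Benjamini-Hochberg. The fit was checked on simulated data. When 1 library was left out, the filter was kept from all 6. Alternatives were other pseudocounts and filters, median-ratio and quantile scaling, a replicate block, 1 fit of all 9 libraries, no trend, a limit of 1.3-fold, each library left out, the second table, and other windows, q limits and overlaps for peaks. From each pathway list, up to 4 genes per comparison with the largest called fold change were named. Some genes of these lists are counted but not reported by name here. Peaks were summarised with Python 3.11.15, gene positions came from GENCODE vM1 and sequences from NCBIM37, the same build as mm9, and figures were drawn with matplotlib 3.10.9. Coordinates and sequence around Spry4 are not reported here. Strandedness of counting is not given in the sources used here.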

Additional observations from a re-analysis of the deposited data

How the results depend on the processing

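For the 6 tested genes in the 3 comparisons, 261 of 274 values under an alternative kept their direction and their side of the adjusted p of 0.05. Of the rest, 12 lost significance, all of them the small differences of Spry4 between Runx1KO and control cells and of Gdf11 between the knockouts, and 1 reversed, Gdf11 between the knockouts at −0.0867 with quantile normalization. For Spry4 the limma adjusted p was 0.798 with quantile normalization and 0.0859 in the second table, and for Gdf11 it was 0.582 with median-ratio scaling. The cause was not tested. With a pseudocount of 0.1 the genes called rose to 1 lower in ZebDKO cells. With the fold limit at 1.3 they rose to 2 higher in Runx1KO and 3 lower in ZebDKO cells. Gdf11 was then also called lower in Runx1KO and Spry2 higher in ZebDKO cells. The same limit gave 2413 higher and 2444 lower calls over all genes in Runx1KO cells (1034 and 666 at 2-fold), 2244 and 4502 in ZebDKO cells (973 and 944), and 4376 and 2404 between the knockouts (1203 and 861). Scaling moved the share of higher calls. It was 50.8% in ZebDKO cells and 64.2% with median-ratio scaling, and between the knockouts 58.3%, against 46.2% with median-ratio scaling and 47.6% with quantile normalization.

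The replicate numbers did not pair the libraries: deviations of same-numbered libraries correlated at −0.05 to 0.0399. With the replicate block 17 of 18 gene results kept their call, with 2 genes lower and 1 higher in Runx1KO cells, and Spry4 in Runx1KO cells had a limma adjusted p of 0.0730. With a window of 20 kb, 4 of the 9 genes had a closing peak (13.6% of coding genes did), 2 an opening (21.7%), 5 a stable (69.1%), 2 a Runx1 (25.3%), 2 a control Runx2 (45.9%) and 3 a Runx1KO Runx2 peak (46.3%), and with 500 kb 8 had a closing peak (83.1%). Values near 0.1 TPM are limited by the single decimal of the table.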

Other observations

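The genes whose levels most resembled each of the 6 tested genes were found by Pearson r of log2(TPM + 1) over the 9 libraries, among 4639 or 4640 genes with a range of at least 1 on that scale. The 9 points fall into 3 groups of 3, so r mainly describes the order of the group means, and it is given without a p. Nearest to Gdnf were Sorcs2 (r = 0.999), Kalrn (r = 0.999) and Nckap5l (r = 0.999). Nearest to Slit2 were Bach2 (r = 0.999), at means of 5.33, 0.1 and 2.53 TPM in control, Runx1KO and ZebDKO cells, Wnt5b (r = 0.999) and Osr1 (r = 0.999). Nearest to Spry4 were Esrrb, Rangap1 (r = 0.998), at 62.9, 66.4 and 126 TPM, and Calcb (r = 0.998). Nearest to Spry1 were Wipf2, Ston2 and Mta1, with r from 0.995 to 0.996. Nearest to Spry2 were Crybg2, Slc5a5 and Btn1a1, with r from 0.985 to 0.990, and nearest to Gdf11 were Ube2l6, Garem1 and Mmd, with r from 0.990 to 0.994.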
